A study of Mus musculus with 6 samples.

Results

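The genes described here encode the machinery with which a cell reads type I IFN: the receptor chains IFNAR1 (*Ifnar1*) and IFNAR2 (*Ifnar2*), the receptor-linked and related Janus kinases JAK1 (*Jak1*), JAK2 (*Jak2*) and TYK2 (*Tyk2*), the transcription factor subunits STAT2 (*Stat2*) and IRF9 (*Irf9*), and the feedback inhibitors SOCS1 (*Socs1*) and SOCS3 (*Socs3*). A locus of the count table was taken as a member if its gene name, split at commas, held the symbol, which gave 9 of 51499 loci, and all 9 passed the filter on low counts. The libraries came from WT MEFs, which are immortalized fibroblasts of mouse embryos, harvested 72 h after transfection with siRNA that was either scrambled (Scr) or directed against *Yme1l*, the gene of a protease in the mitochondrial inner membrane. Each group held 3 samples, called cultures here. The labels do not say that they were separate, but per the methods the N of MEF experiments counts independent cultures. The p-values measure the spread between these samples. The comparison asks how acute *Yme1l* knockdown changes the transcriptome. According to the methods, WT cells with loxP-flanked *Yme1l* alleles were identified among expanded clones of MEFs that carry SV40 large T antigen, but per the labels the cells were 3T3 immortalized, and how many clones these libraries represent was not analysed here. The labels name no treatment of either group other than the siRNA, whose sequences were not analysed here.

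Type I IFN binds a receptor of IFNAR1 and IFNAR2, to which TYK2 and JAK1 are bound. The kinases phosphorylate STAT proteins, and STAT2 joins IRF9 in the complex ISGF3, which binds the IFN-stimulated response element (ISRE) in the promoters of ISGs, while STAT dimers bind the gamma-activated sequence (GAS). SOCS1 and SOCS3 are induced by cytokines and dampen the kinases, SOCS3 chiefly below receptors that signal through gp130 and STAT3, and JAK2 serves the receptors of IFN-γ and of many other cytokines rather than IFNAR. *Stat2*, *Irf9* and *Socs1* are themselves known as ISGs in fibroblasts.

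The promoters of the members differed in the elements that these factors are known to bind. RefSeq promoters on GRCm38.p6, from 250 bases before to 50 after the start, were searched for the ISRE core (GAAA, any 2 bases, GAAA) and the GAS word TTCNNNGAA on both strands. The ISRE core was found in 1131 of 32851 promoters (3.44%) and the GAS word in 2726 (8.30%). Among the members, *Stat2* and *Socs1* held an ISRE core and *Socs3*, *Ifnar2* and *Ifnar1* a GAS word, whereas the promoters of *Jak1*, *Jak2*, *Tyk2* and *Irf9* held neither, which says only that these letters are not in the window. The sequences below are shown because they set the ISRE of a gene that rose (*Stat2*) beside that of one that did not pass the test (*Socs1*), and the GAS words of a gene that fell (*Socs3*) and of a locus that rose (*Ifnar2*). Capitals mark the match, and all are written 5′ to 3′ on the strand of the gene, upstream of its RefSeq start.
*Stat2*, chr10:128270248-128270315, plus strand: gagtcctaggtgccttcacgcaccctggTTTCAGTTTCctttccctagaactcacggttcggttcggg
*Socs1*, chr16:10785574-10785649, minus strand: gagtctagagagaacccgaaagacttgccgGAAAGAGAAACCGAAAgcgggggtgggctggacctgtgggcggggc
*Socs3*, chr11:117969482-117969550, minus strand: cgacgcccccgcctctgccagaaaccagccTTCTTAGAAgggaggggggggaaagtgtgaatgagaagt
*Ifnar2*, chr16:91372539-91372607, plus strand: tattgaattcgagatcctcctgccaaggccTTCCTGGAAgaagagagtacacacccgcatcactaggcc
In *Stat2* the core lay on the reverse strand, so that it reads TTTCAGTTTC here, and began 222 bases before the start. In *Socs1* the core occurred at 83 and at 77 bases before the start, and the 2 matches share bases. The GAS words of *Socs3* and *Ifnar2* began 154 and 214 bases before the start, and that of *Ifnar1* spanned the start from 5 bases before it. A match is a string of letters in the reference, and binding was not measured.

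The libraries held between 37260605 and 45205207 counts on loci. Levels are given as CPM, counts divided by the TMM-scaled library size in units of 1e+06 counts, and groups were compared with edgeR's quasi-likelihood test, with Benjamini-Hochberg adjustment over all 14499 loci tested and a threshold of 0.05. *Yme1l1* itself was at 7380, 6180 and 7199 counts in Scr replicates 1, 2 and 3 and at 1403, 1019 and 1898 counts after knockdown, which left 18.5%, 13.7% and 26.4% of the Scr mean. Yme1l siRNA replicate 3 and Scr replicate 3 stood apart from the other libraries of their groups on the second principal component (10.1% of the variance), and the groups were parted on the first (75.0%). Of 12 leukocyte markers 4 were at 0 counts in every library, among them *Adgre1*, *Tyrobp* and *Cd3e*, *Ptprc* had 3 counts in Yme1l siRNA replicate 1 and 0 elsewhere, and *Cd68* (25.7 to 58.2 CPM), *Cd14* (27.3 to 30.5) and *Csf1r* (109 to 222) were clearly present. The summed CPM of 12 fibroblast markers was between 35150 and 42590 in Scr and between 19300 and 24010 after knockdown, with 8 of the 10 tested called lower. The summed CPM was 193 to 208 in Scr and 273 to 286 after knockdown for the leukocyte markers (1 of 4 tested called higher, *Csf1r*), 4.34 to 4.67 and 7.41 to 8.50 for endothelial markers (3 of 4), and 0.116 to 0.222 and 0.831 to 1.33 for epithelial markers (1 of 1). The epithelial marker tested, *Krt8*, had 1, 1 and 1 counts in Scr and 24, 31 and 23 after knockdown. The endothelial marker *Kdr* had 3, 9 and 7 counts in Scr and 43, 43 and 38 after knockdown. Both passed the filter only through their knockdown counts, so their calls are no separate support for a rise. Fewer cells of a type and less RNA per cell cannot be told apart in such bulk libraries, and the part of the marker shift in the results was not tested.

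The members did not move in 1 direction after *Yme1l* knockdown. Both ISGF3 subunits and the *Ifnar2* locus rose, all 3 kinases and *Socs3* fell, and *Ifnar1* and *Socs1* did not pass the test. Thus 3 of 9 members were called higher, against 28.4% of all loci tested, and 4 of 9 lower, against 29.6% of all loci. The libraries of the groups did not overlap for 7 of 9 members, against 65.4% of all loci. The median log2 fold change of the members was -0.05, beside 0.01 over all loci, and the median size of the change was 0.37, beside 0.42 over all loci. The members as a list were therefore close to the background, and what follows describes them one by one. For each of the 7 members whose groups did not overlap, the two-sided exact permutation test of 3 against 3 cultures gave p = 0.10, the smallest that it allows.

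**Figure D1:**
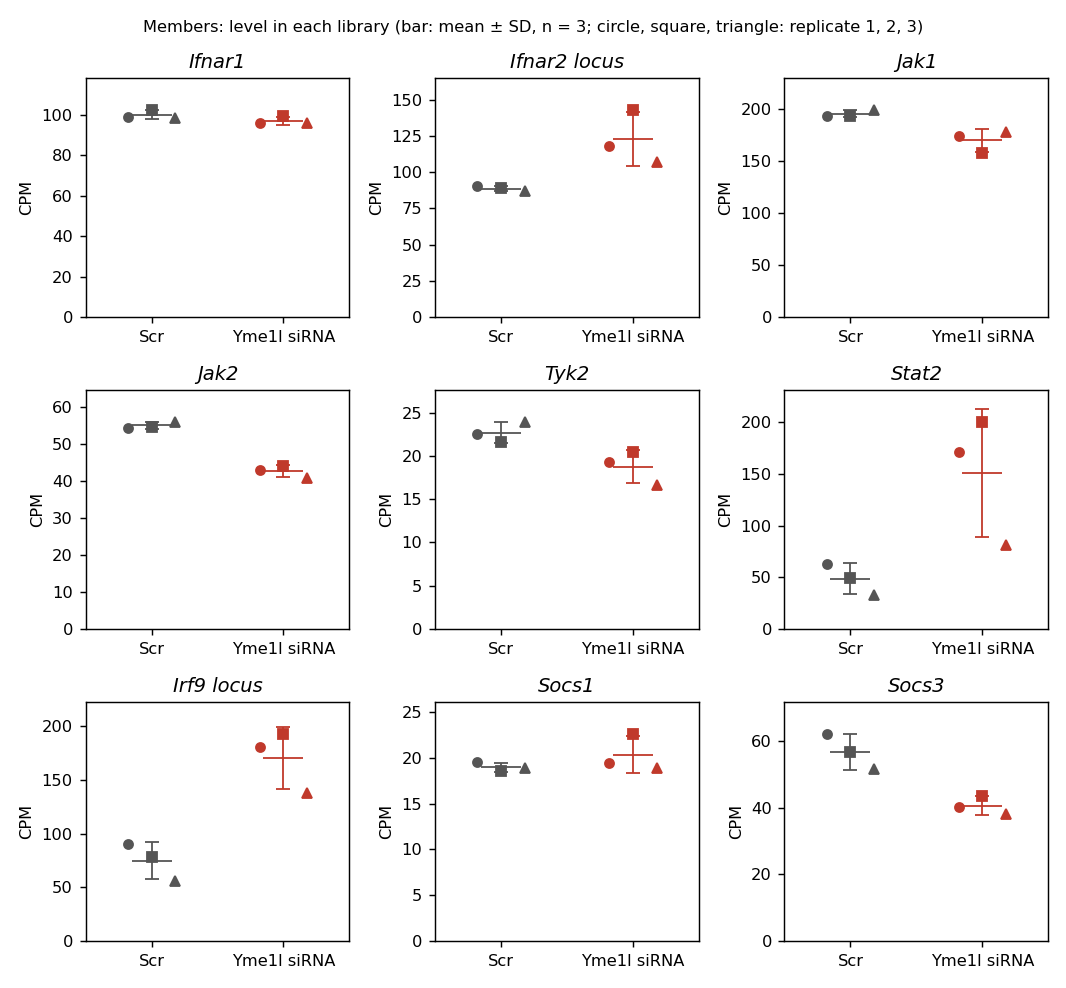
Level of each member (CPM, vertical axis from 0) in the Scr and Yme1l siRNA libraries, with a marker for each replicate and the mean ± SD (n = 3). The Yme1l siRNA libraries lie above the Scr libraries for the *Ifnar2* locus, *Stat2* and the *Irf9* locus, below them for *Jak1*, *Jak2*, *Tyk2* and *Socs3*, and overlap with them for *Ifnar1* and *Socs1*.

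The ligand was measured at the edge of detection. Of 12 type I IFN genes, *Ifnb1*, which encodes IFNβ, was the 1 that passed the filter, and the *Ifna* genes, *Ifnab*, *Ifne* and *Ifnz* did not. *Ifnb1* had 3, 1 and 0 counts in Scr replicates 1, 2 and 3 and 37, 60 and 11 counts in Yme1l siRNA replicates 1, 2 and 3. All knockdown libraries were above all Scr libraries (edgeR, adjusted p = 0.00233), with the fewest counts in Yme1l siRNA replicate 3. The filter kept *Ifnb1* only through its knockdown counts, so the p-value is description and no separate support for a rise.

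The loci that hold the receptor chains differed in their calls. *Ifnar1* (ENSMUSG00000022967, chromosome 16 of GRCm38, 91485238 to 91507441) encodes the chain that binds TYK2. It was at 99.2, 103 and 98.7 CPM in Scr and at 96.0, 99.5 and 95.8 CPM after knockdown, so that the groups overlapped within a narrow range. Its log2 fold change was -0.05 (SE 0.06, edgeR adjusted p = 0.559), with a 95% confidence interval from -0.19 to 0.10. *Ifnar1* was not called, and its interval lies below those of both ISGF3 subunits.

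*Ifnar2* (ENSMUSG00000022971, chromosome 16, 91372783 to 91405589) encodes the chain that binds JAK1 and exists in signalling and soluble forms. The authors counted it in 1 locus with *Il10rb*, a chain of the IL-10, IL-22 and IFN-λ receptors, and with *Gm21970*, a model whose exons overlap both on the same strand, and the locus ends at 91425834. The locus was at 90.1, 88.7 and 87.1 CPM in Scr and at 118, 143 and 107 CPM after knockdown. Every knockdown library was above every Scr library, with the highest value in Yme1l siRNA replicate 2. The level rose from 88.6 ± 1.53 to 123 ± 18.5 CPM (SD, n = 3), a log2 fold change of 0.47 (SE 0.10, edgeR adjusted p = 0.00488) that lay between 0.35 and 0.56 when 1 library was left out. How the change divides between *Ifnar2* and *Il10rb* cannot be told apart from these counts. Within each culture, the ratio of counts at the *Ifnar2* locus to counts of *Ifnar1* was 0.909, 0.864 and 0.882 in Scr and 1.23, 1.44 and 1.12 after knockdown, and the groups did not overlap (exact permutation p = 0.10, 0.20 after adjustment over the 6 ratios compared).

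The kinases were all lower after *Yme1l* knockdown, each by less than the 2-fold that is a log2 change of 1. *Jak2* (ENSMUSG00000024789, chromosome 19, 29251828 to 29313080) had the smallest adjusted p among the kinases. It was at 54.4, 54.5 and 56.0 CPM in Scr and at 42.9, 43.9 and 40.8 CPM after knockdown. All knockdown libraries were below all Scr libraries, and the replicates of each group lay close together. Its mean went from 55.0 ± 0.891 to 42.5 ± 1.61 CPM (SD, n = 3). *Jak2* fell by 0.37 on the log2 scale (SE 0.06, edgeR adjusted p = 0.00102), which is 22.6% of its level, and it was called in all 6 fits that left out 1 library.

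*Jak1* (ENSMUSG00000028530, chromosome 4, 101152367 to 101265282) encodes the kinase bound to IFNAR2. It was at 193, 193 and 199 CPM in Scr and at 174, 157 and 178 CPM after knockdown, with no overlap and the lowest value in Yme1l siRNA replicate 2. It fell by 0.20 on the log2 scale (SE 0.07, edgeR adjusted p = 0.0389), with a 95% interval from -0.37 to -0.04. The call is marginal: of the 6 fits that left out 1 library, the fit without Yme1l siRNA replicate 3 kept it (adjusted p = 0.0276) and the others did not (adjusted p up to 0.0997, without Yme1l siRNA replicate 2).

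*Tyk2* (ENSMUSG00000032175, chromosome 9, 21104068 to 21131243) encodes the kinase bound to IFNAR1. It was the lowest of the kinases in counts, with 22.5, 21.6 and 24.0 CPM in Scr and 19.3, 20.4 and 16.6 CPM after knockdown. The groups did not overlap, but the highest knockdown library (replicate 2) was at 0.945 times the lowest Scr library (replicate 2). *Tyk2* fell by 0.27 on the log2 scale (SE 0.10, edgeR adjusted p = 0.0385), and the call was kept without Yme1l siRNA replicate 2 (adjusted p = 0.0243) but lost in the other 5 fits that left out 1 library (adjusted p up to 0.0935). *Jak1* shares exon bases with *Raver2* and *Tyk2* with *1700084C06Rik*, each on the opposite strand, and whether the counting used the strand is not stated. The authors' loci also reach past both genes, from 101068983 to 101265282 for *Jak1* and from 21062393 to 21131243 for *Tyk2*. *Raver2* lies within the first span, and *Raver1*, *Fdx1l* and *Zglp1*, among others, within the second. Whether reads of these genes entered the counts of *Jak1* and *Tyk2* was not tested. Within a culture, the ratio of *Jak1* to *Jak2* counts was 3.56, 3.54 and 3.56 in Scr and 4.06, 3.58 and 4.37 after knockdown (exact permutation p = 0.10, adjusted 0.20), while for the ratios of *Jak1* and of *Jak2* to *Tyk2* the groups overlapped (exact permutation p = 0.70 and 0.30).

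**Figure D2:**
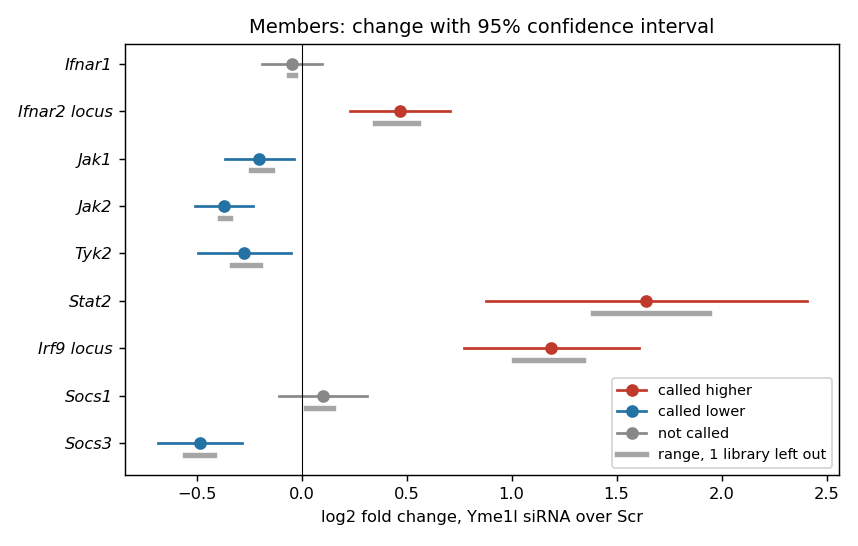
Log2 fold change of each member, Yme1l siRNA over Scr, with its 95% confidence interval (edgeR, 3 libraries per group, coloured by call) and, as a grey bar, the range when 1 library is left out. *Stat2* (1.64) and the *Irf9* locus (1.19) lie to the right of all others, while the intervals of *Jak1* and *Tyk2* end close to 0 and those of *Ifnar1* and *Socs1* include it.

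The subunits of ISGF3 were the members that changed by more than 2-fold. *Stat2* (ENSMUSG00000040033, chromosome 10, 128270559 to 128292849) encodes the STAT particular to type I and type III IFN signalling. It was at 62.8, 49.4 and 32.8 CPM in Scr and at 171, 201 and 81.0 CPM after knockdown. All knockdown libraries were above all Scr libraries, but both groups were wide: the highest Scr library was 1.91 times the lowest, the highest knockdown library 2.48 times the lowest, and Yme1l siRNA replicate 3 was 1.29 times Scr replicate 1. *Stat2* rose from 48.3 ± 15.0 to 151 ± 62.3 CPM (SD, n = 3), a log2 fold change of 1.64 (SE 0.33, edgeR adjusted p = 0.00309) with a 95% interval from 0.88 to 2.41, and this was between 1.39 and 1.94 when 1 library was left out.

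*Irf9* (ENSMUSG00000002325, chromosome 14, 55603571 to 55610030) encodes the DNA-binding subunit that gives ISGF3 its preference for the ISRE. The authors counted it in 1 locus with *Rnf31*, a ubiquitin ligase gene that lies directly upstream and overlaps it on the same strand, so that reads of the pair cannot be told apart. The locus was at 89.8, 78.3 and 56.0 CPM in Scr and at 181, 193 and 138 CPM after knockdown. The groups were further apart than for *Stat2*, with the lowest knockdown library at 1.53 times the highest Scr library. The level rose from 74.7 ± 17.2 to 170 ± 29.1 CPM (SD, n = 3), a log2 fold change of 1.19 (SE 0.18, edgeR adjusted p = 0.000677) with a 95% interval from 0.77 to 1.61. The ratio of *Stat2* counts to *Irf9* locus counts within a culture was 0.699, 0.631 and 0.586 in Scr and 0.946, 1.04 and 0.589 after knockdown. Yme1l siRNA replicate 3 thus kept the ratio of the Scr libraries, and the groups overlapped (exact permutation p = 0.30, adjusted 0.36).

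The feedback inhibitors parted. *Socs1* (ENSMUSG00000038037, chromosome 16, 10782240 to 10785536) encodes an inhibitor that binds JAK1, JAK2 and TYK2. It was at 19.5, 18.5 and 18.9 CPM in Scr and at 19.5, 22.7 and 18.9 CPM after knockdown. The highest value was in Yme1l siRNA replicate 2, and the other libraries of both groups lay within 1 CPM of each other. The log2 fold change was 0.10 (SE 0.09, edgeR adjusted p = 0.375), with a 95% interval from -0.11 to 0.31 that ends below those of *Stat2* and the *Irf9* locus. The *Socs1* promoter, like that of *Stat2*, holds the ISRE core. No fit over the 14 alternatives called *Socs1* (adjusted p from 0.173 to 0.825).

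*Socs3* (ENSMUSG00000053113, chromosome 11, 117966079 to 117970047) encodes an inhibitor of gp130 receptors and is itself a known STAT3 target. It was at 62.3, 56.7 and 51.5 CPM in Scr and at 40.1, 43.6 and 38.1 CPM after knockdown. All knockdown libraries were below all Scr libraries, the opposite of *Stat2*. Its mean went from 56.8 ± 5.40 to 40.6 ± 2.81 CPM (SD, n = 3). *Socs3* fell by 0.48 on the log2 scale (SE 0.09, edgeR adjusted p = 0.00167), which is 28.5% of its level, and its log2 fold change lay between -0.56 and -0.42 when 1 library was left out. The ratio of *Socs1* to *Socs3* counts within a culture was 0.313, 0.327 and 0.366 in Scr and 0.485, 0.519 and 0.496 after knockdown, and the groups did not overlap (exact permutation p = 0.10, adjusted 0.20).

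Among the members, the cultures within a group differed most at *Stat2* and the *Irf9* locus. In order of *Ifnb1* counts, the Scr libraries ran 1, 2, 3 and the Yme1l siRNA libraries 2, 1, 3. The Scr order rests on 3, 1 and 0 counts, which counting noise could reorder. *Yme1l1* was lowest in Yme1l siRNA replicate 2 and highest in replicate 3 of that group. *Stat2*, the *Irf9* locus, the *Ifnar2* locus and *Socs3* had both orders of *Ifnb1*, which is 4 of 9 members, beside 7.08% of all loci tested. *Socs3* had them although it fell. Both orders were also found for 17 of 20 ISRE target genes and 7 of 9 GAS target genes, but for none of the 6 other JAK and STAT loci. This order was chosen after the values were seen, the libraries of a group are few, and the part of knockdown depth or of *Ifnb1* in it was not tested. Without Yme1l siRNA replicate 3, the log2 fold change of *Stat2* was the highest of its range (1.94) and that of the *Irf9* locus was 1.32. The highest value of the *Irf9* locus, 1.34, was without Scr replicate 1, and the lowest, 1.01, without Scr replicate 3.

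**Figure D3:**
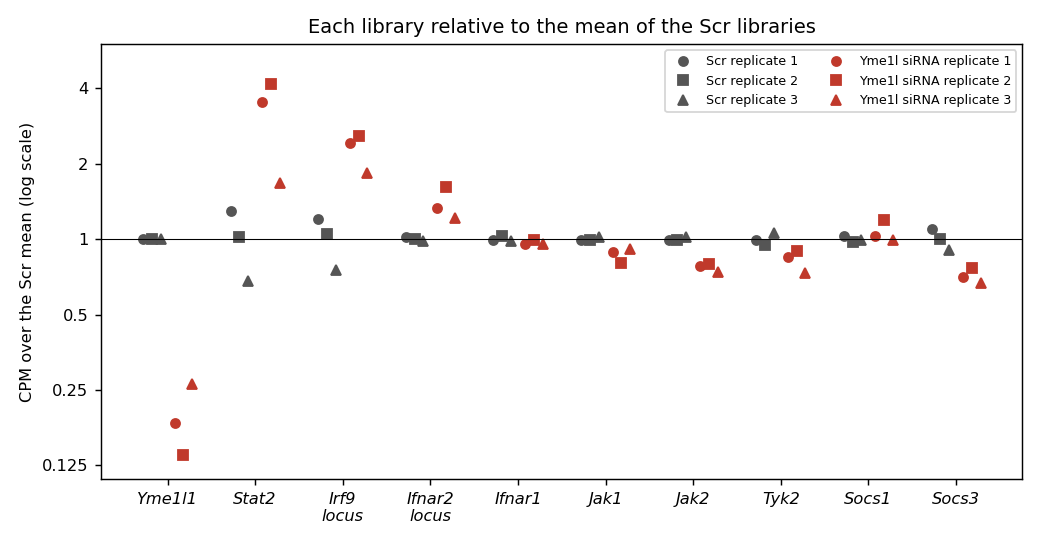
CPM of *Yme1l1* and of each member in every library, divided by the mean of the Scr libraries (log scale; a marker for each replicate). Yme1l siRNA replicate 2 (square) has the least *Yme1l1* and the most *Stat2*, *Irf9* locus and *Ifnar2* locus, and replicate 3 (triangle) the reverse within its group, while *Ifnar1* and *Socs1* stay between 0.956 and 1.19.

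Levels per length show how the machinery stood relative to itself. Divided by the length of the annotated exons within the authors' locus, the Scr order was *Jak1* (27.0 ± 0.482 CPM per kb), *Socs3* (19.7), *Ifnar1* (16.9), *Socs1* (14.2), the *Ifnar2* locus (12.4), *Jak2* (10.9), *Stat2* (8.16 ± 2.53), the *Irf9* locus (6.79 ± 1.56) and *Tyk2* (3.31). Neighbours in this order were apart in all Scr libraries except *Stat2* and the *Irf9* locus. After knockdown *Stat2* headed the order at 25.5 ± 10.5 CPM per kb, which overlapped with *Jak1* at 23.5 ± 1.54, and *Jak2* (8.45) and *Tyk2* (2.73) were the lowest. Between them lay the *Ifnar2* locus, *Ifnar1*, the *Irf9* locus, *Socs1* and *Socs3* at 17.2 to 14.1 CPM per kb, each overlapping with its neighbour. The pooled FPKM values that the authors deposited place the joined loci higher, at 63.6 in Scr for the *Ifnar2* locus and 29.1 for the *Irf9* locus, with *Tyk2* at 5.30 again the lowest. Single-gene members also changed places by these FPKM values: in Scr, *Ifnar1* (26.9) lay above *Socs3* (23.4), and *Stat2* above *Jak2*. After knockdown the FPKM of *Stat2* (49.8) was below those of the *Ifnar2* locus (88.4) and the *Irf9* locus (70.5). The order of the members, joined or not, thus depends on how the level is computed.

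*Stat2* and the *Irf9* locus moved with other loci. Over the 6 libraries, the loci whose log2 CPM was most like that of *Stat2*, among the 11440 loci averaging 1 or more on the log2 CPM scale, were *Lgals9*, *Sp100* and *Iigp1* (Pearson r of 0.998 each). For the *Irf9* locus they were *Xaf1*, *Oasl2* and *Gbp3* (r of 1.00, 0.999 and 0.998). With r above 0.95 there were 350 loci for *Stat2* and 581 for the *Irf9* locus, but 12 for *Socs1*, where *Syngr1* (0.995), *Vegfb* (0.992) and *Rhbdl3* (0.983) came first and did not pass the test between groups. These values describe 6 libraries in 2 groups and share the libraries' scale factors, and a difference between the groups alone gives a high r. How many such loci a typical called locus has was not counted, so that 350 and 581 have no background to be read against.

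The genes around the members are described by the same fit, from lists chosen by role. Of the 97 loci of these lists that were tested, 46 were called higher and 21 lower. The counts of each list are to be read against the 28.4% of all loci called higher and the 29.6% called lower, and a list near these shares is described by its named genes only. In the list of other JAK and STAT genes, 4 of 6 loci fell (median log2 fold change -0.34, beside 0.01 over all loci). *Stat3*, the main STAT below gp130, fell from 209 ± 9.29 to 78.3 ± 2.86 CPM (SD, n = 3; log2 fold change -1.42, edgeR adjusted p = 5.59e-06). *Stat5a* (-0.45), the locus of *Jak3* and *Insl3* (-0.65) and *Stat6* (-0.22) also fell, and *Stat5b* did not pass the test. Without Scr replicate 1, 2 loci of this list rather than 4 were called lower.

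Among the other SOCS genes, 2 of 6 rose and 2 fell. *Socs2* and *Cish*, known targets of STAT5 that restrain growth hormone and cytokine receptors, fell by 1.90 and by 1.70 on the log2 scale (edgeR adjusted p = 3.87e-05 and 0.000229), beside 0.48 for *Socs3*. *Socs6* (0.50) and *Socs4* (0.30) rose, whereas *Socs5* and *Socs7*, like *Socs1*, did not pass the test. Of 15 loci on the list named other negative regulators, not all of which need be inhibitors, 2 rose and 5 fell (median -0.16). *Usp18*, an ISG whose product competes with JAK1 at IFNAR2 and which is also on the list of ISRE targets, rose by 2.99 (edgeR adjusted p = 0.000334), and *Sh2b1* rose by 0.50. The PIAS genes *Pias3* (-0.62), *Pias1* (-0.51) and *Pias4* (-0.27) and the phosphatase genes *Ptpn1* (-0.55) and *Ptpn13* (-0.45) fell.

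The receptors of neighbouring cytokines were close to the background in their counts. Of 6 loci for other IFN and IL-10 family receptors, 2 rose and 2 fell. *Ifngr1*, the ligand-binding chain for IFN-γ, which signals through JAK1 and JAK2, fell from 58.8 ± 1.16 to 29.0 ± 0.204 CPM (log2 fold change -1.02, edgeR adjusted p = 8.12e-06), a change to set beside the -0.05 of *Ifnar1*. *Il20rb* rose (1.41) from a low level, the locus of *Il10rb* is that of *Ifnar2*, and *Ifnlr1* had 12, 12 and 11 counts in Scr and 5, 8 and 5 after knockdown, and 1 receptor rather than 2 was called lower in the fits without 1 library, except that without Yme1l siRNA replicate 2. In the gp130 family 4 of 11 rose and 3 fell (median -0.12). *Il11ra1* (-1.19, edgeR adjusted p = 2.68e-05), *Ctf1* (-0.70) and *Lifr* (-0.47) fell, *Lif* (0.55), *Il6ra* (0.65) and *Il11* (1.04) rose, and *Il6* rose from 3, 1 and 5 counts to 37, 36 and 18. The filter kept *Il6* only through its knockdown counts and *Ifnlr1* only through its Scr counts, so these calls are no separate support for a change. Of 13 genes for receptor trafficking and coactivators, 6 rose and 2 fell, with *Camk2d* (-0.87), *Nmi* (1.29) and *Prmt5* (0.59) having the smallest adjusted p and *Pdlim2* (-0.31) the other that fell, and 1 rather than 2 was called lower without Scr replicate 1, Scr replicate 2, Yme1l siRNA replicate 1 or Yme1l siRNA replicate 3.

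The target genes below these factors were counted in the same way. Which element each gene used was not measured, so the ISRE and GAS lists are not separate readouts. All 20 ISRE target genes rose, with a median log2 fold change of 2.73 and groups apart for 19 of them. They include *Oasl1* (4.37), *Oas2* (5.03) and *Oas1a* (3.64), which encode proteins of the 2′-5′-oligoadenylate synthetase family, and the list was drawn up with results of these data known. Of 9 GAS target genes 7 rose and the log2 fold change was above 0 for all 9 (0.54 or more, median 1.52), and the smallest adjusted p belonged to *Cxcl10* (3.04), *Gbp3* (2.95) and *Icam1*, which went from 2, 0 and 2 counts to 47, 65 and 15. The filter kept *Icam1* only through its knockdown counts, so its place among the 7 is no separate support for a rise. Of 11 STAT3 target genes other than *Socs3*, 2 rose and 3 fell (median -0.21): *Myc* (1.02) and *Pim1* (1.06) rose, while *Mcl1* (-0.45), *Cebpb* (-0.57) and *Bcl2l1* (-0.30) fell. *Socs3* lay within the range of the STAT3 targets (-0.62 to 1.06), but this range runs from percentile 16.4 to 92.1 of all loci, so that most loci lie in it. *Stat2* and, near the lower end, the *Irf9* locus (1.19) lay within that of the ISRE targets (1.17 to 5.03). *Socs1*, at 0.10, lay below the ISRE range, and since that list was drawn up with results known, these positions are description only.

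**Figure D4:**
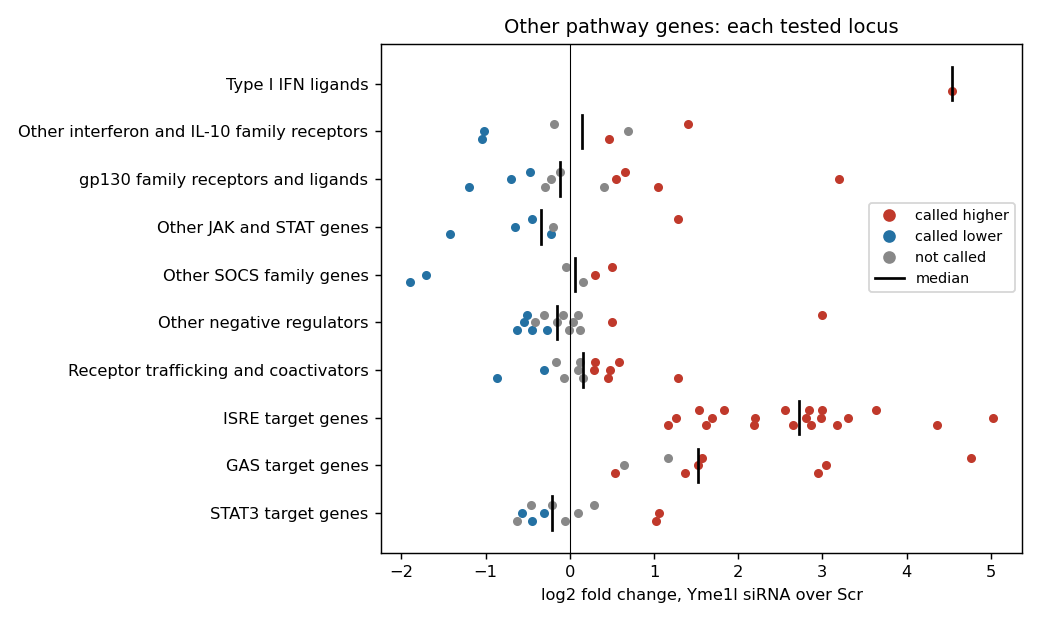
Log2 fold change, Yme1l siRNA over Scr, of every tested locus of the pathway lists, coloured by call, with the median of each list as a black line. The ISRE target genes all lie above 1, the GAS target genes all above 0.5, and the lists between the ligand and the targets spread to both sides of 0, as do the STAT3 target genes. The positions of *Ifnb1*, *Il6* and *Icam1*, with 5 counts or fewer in every Scr library, depend on the fit and bound no fold change.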

How the data were processed

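RNA-Seq was performed on 6 libraries of WT MEFs (3 Scr, 3 Yme1l siRNA). Per the labels and methods, poly(A)-selected stranded paired-end libraries were aligned to GRCm38 with HISAT2 2.0.4, assembled with StringTie 1.3.3 and compared with Cuffdiff 2.2.1. The counts the authors deposited are raw counts per locus, without normalization, and the counting program, its use of strand and of multi-mapped reads are not given in the sources used here. Of 14499 loci tested, 398 join several gene names. The FPKM values the authors deposited pool the 3 libraries of a group. The authors' fold changes, test statistics and p-values were not used. No per-sample column was left unmapped (0).

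Counts were analysed in edgeR 4.0.16 (R 4.3.3): filterByExpr (minimum 10, total 15), TMM, glmQLFit and glmQLFTest without covariates, and Benjamini-Hochberg adjustment over all loci tested. The biological coefficient of variation was 0.131. The SE is the log2 fold change divided by the square root of F. For log2 CPM a prior count of 2 was used. Pairs of replicates had a chi-square per degree of freedom of 9.70 to 69.9, above counting noise, and none was treated as a copy. Steps were tested on simulated data. DESeq2 1.42.0, limma-voom (limma 3.58.1), other scale factors, filters and thresholds, a replicate block and leaving out each library were alternatives. Leaving out loci that join several names was chosen after seeing the data.

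Members and lists were chosen with earlier results of these data known. Named were all members, Yme1l1, Ifnb1, from each list the 3 loci of lowest adjusted p, genes of any count of 5 or fewer, and the 3 loci most like Stat2, Irf9 and Socs1. Positions came from the GENCODE annotation of GRCm38, and promoters from RefSeq. Irf8 was not matched to a name in the count table, and Usp18 not to a promoter. 1 locus of the lists is not reported here by name.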

Additional observations from a re-analysis of the deposited data

How the results depend on the processing

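Over the alternatives, 108 of 126 single-member values kept their direction and their side of the threshold. Of 107 counts and medians 96 stayed near the main value, as did 277 of 300 counts for the lists. For a count, near means within a fixed ratio of the main count, so a count could stay near although a call was lost. With DESeq2 size factors, for example, 3 members rather than 4 were called lower. For the member median, near means a shift below 0.0308, its SD over the Yme1l siRNA libraries. Stat2, the Irf9 locus, the Ifnar2 locus, Jak2 and Socs3 were called in all 14 alternatives, whereas the call was lost in 9 for Jak1 (adjusted p from 0.0276 to 0.144) and in 8 for Tyk2 (0.0243 to 0.120). So 2 members instead of 4 were called lower with library totals only, with a mean of at least 50 counts and at an adjusted p under 0.01, and 2 to 3 when 1 library was left out (2 without any of the Scr replicates or Yme1l siRNA replicate 1). The member median, -0.0454, was 0.0199 with library totals only and -0.0128 with a mean of at least 50 counts. With library totals only, Ifnar1 turned from -0.0454 to 0.0199 (adjusted p = 0.815, range over alternatives 0.474 to 0.865), and the median of all loci was 0.07, beside 0.01. Without loci that join several names, chosen after seeing the data, 1 member was called higher (Stat2) and the median was -0.202. The cause of these shifts was not tested, except that the last leaves fewer loci. The labels do not say that a replicate number marks a shared day, and same-numbered libraries deviated together with r of 0.04, 0.12 and 0.19, under 0.1 for the first pair. For libraries of different numbers r ran from -0.181 to 0.091. With the replicate number as a block, 3 members were called higher and 4 lower, as without it, and over all loci 4227 and 4460, beside 4123 and 4288, and the STAT3 targets called lower were 5 rather than 3. The block narrowed the SE of Stat2 from 0.335 to 0.134 (edgeR adjusted p = 6.99e-05) and that of the Irf9 locus from 0.182 to 0.0812. It widened the SE of Jak2 from 0.0612 to 0.0666 and of Tyk2 from 0.0971 to 0.101. Genes with few counts, such as Ifnb1, are limited by depth.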
